A study of Mus musculus with 11 samples.

Results

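The genes described here are 10 enzymes that build and sulfate heparan sulfate chains. They comprise the polymerase genes Ext1, Ext2 and Extl3, the N-deacetylase/N-sulfotransferase genes Ndst1, Ndst2, Ndst3 and Ndst4, and the O-sulfotransferase genes Hs2st1, Hs6st1 and Hs6st2. They were chosen by function, as 10 of the 38924 genes in the count files, with lower Ndst3 and Ndst4 in Chd7-deficient cells already known from the same comparison. The contrast of cko with control therefore describes these 10 genes and is given for them without a test. Other genes of the pathway, which the choice did not use, were tested. Transcripts were counted by RNA-Seq in cerebellar granule cell progenitors (GCps) purified at P7. The mice came from lines that the paper describes as backcrossed to C57BL/6J. The cko libraries (n = 2) came from Math1-Cre Chd7fl/fl pups, in which Cre acts in the granule cell lineage. The control libraries (n = 2) carry the label Chd7flox/+, whereas the extraction notes give the control as Chd7f/f, so that controls carried at least 1 floxed allele in either case. The purification protocol of the paper, to which its RNA-Seq section refers, removed lobules IX and X and pooled cerebella of a genotype. The RNA-Seq section gives cell numbers per cerebellum, so pooling is not certain for these libraries. No source used here states that replicate libraries came from separate animals. Sex-linked transcripts, given below, show that the cko libraries came from different pups, whereas they do not tell the control libraries apart.

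Heparan sulfate is a sulfated sugar chain carried by core proteins such as syndecans, glypicans, perlecan and agrin at the cell surface and in the extracellular matrix. Chains are extended in the Golgi by EXT1 and EXT2 after EXTL3 has added the initial N-acetylglucosamine. NDST enzymes then replace acetyl groups with sulfate, and epimerization and sulfation at the 2-O, 6-O and 3-O positions follow mostly where NDST enzymes have acted. The sulfation pattern sets which ligands bind, among them fibroblast growth factors, WNTs, SLITs and Sonic Hedgehog, the mitogen of GCps.

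Total counts were between 61836588 and 77346481 per library, and 16436 genes passed the expression filter and were tested, all 10 heparan sulfate genes among them. Across these genes 260, or 1.58%, passed the threshold of 0.05 on the adjusted p (quasi-likelihood test of edgeR), 127 of them lower (0.773%) and 133 higher (0.809%) in cko GCps. Values of the cko and control libraries did not overlap for 43.9% of tested genes. Genes of the granule cell precursor list, used to check the cell type, summed to 4467 and 5497 CPM (counts scaled to a common library size) in cko and to 5435 and 5403 CPM in control libraries, and 0 of 10 passed the test (2 at an unadjusted p under 0.05). Chd7 itself had 392.5 and 354.8 CPM in cko and 322 and 319 CPM in control libraries, and because counts are summed over the whole gene they do not check the deletion. Xist stood at 793 CPM in cko replicate 1, against 0.114 CPM in cko replicate 2 and 0.548 and 0.182 CPM in the control libraries. The Y-linked gene Ddx3y had 0.00 CPM in cko replicate 1, 68.2 CPM in cko replicate 2 and 69.1 and 63.7 CPM in the control libraries. By these transcripts cko replicate 1 is female, and cko replicate 2 and both control libraries are male. Sex is therefore not balanced between genotypes. With 2 libraries a group the smallest p of an exact permutation test is 0.333. The edgeR p-values set each difference against a spread estimated from these libraries and moderated across genes. They cover no spread beyond these libraries.

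Ndst3 and Ndst4 were the genes of the set that differed most between genotypes, and their closest relatives Ndst1 and Ndst2 were near the control level. Ndst3 encodes a brain-expressed isoform known for strong deacetylase and weak sulfotransferase activity. It had 28.5 and 34.7 CPM in cko libraries, against 98.4 and 108.7 CPM in control libraries. Both cko values lay below both control values, a pattern seen in 21.2% of tested genes, and the mean was 31.6 ± 4.42 CPM in cko and 103.6 ± 7.24 CPM in control GCps (SD, n = 2 each), a ratio of 0.305. Ndst4, an isoform with weak deacetylase activity, had 0.350 and 0.894 CPM in cko libraries, against 4.15 and 5.14 CPM in control libraries, from raw counts of 27 and 55 in cko and of 318 and 310 in control libraries. Here too the groups did not overlap, and the mean in cko GCps was 0.134 of that in control GCps. The fitted log2 fold change was -1.71 (standard error, SE, 0.13) for Ndst3 and -2.92 (SE 0.44) for Ndst4. Both were below -1, as were 1.72% of tested genes, and on the called side of the threshold, 2 of 10 genes beside 0.773% of tested genes called lower, a count that restates how the set was chosen. Without control replicate 1 or control replicate 2, Ndst4 no longer passed, at log2 fold changes of -3.06 and -2.75, and 1 of the 10 genes was called. The cko libraries differed from each other more for Ndst4 (1.35 on the log2 scale) than for Ndst3 (0.29).

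**Figure D1:**
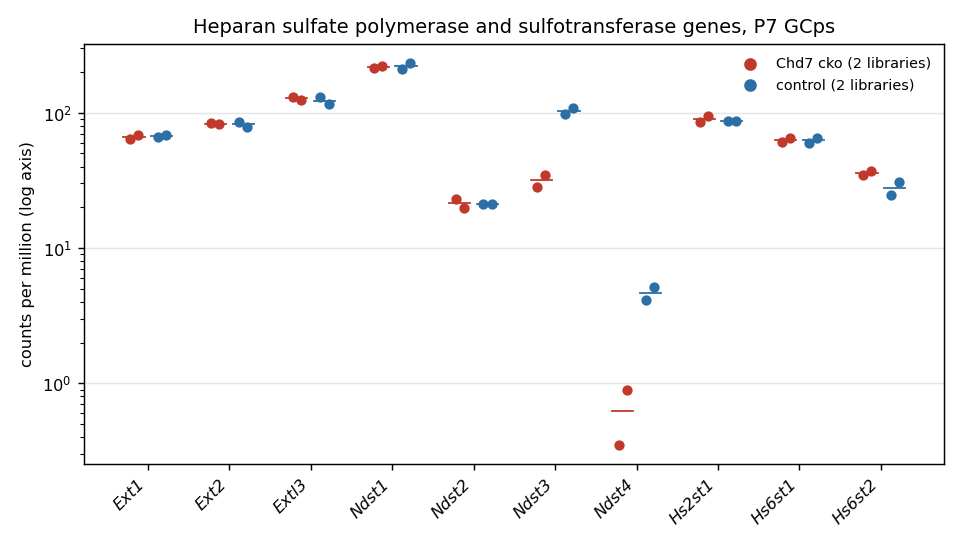
Level of the 10 heparan sulfate genes in each library, in CPM on a log axis, with cko libraries (red) left of control libraries (blue) and bars at the group mean (n = 2 each). Ndst3 and Ndst4 lie lower in both cko libraries, Hs6st2 lies higher in both, and the other 7 genes overlap between genotypes.

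Ndst1 and Ndst2, the NDST isoforms found in most tissues, showed no such difference. Ndst1 had 215.9 and 219.9 CPM in cko and 210.3 and 232.9 CPM in control libraries, with a fitted log2 fold change of -0.02 (SE 0.10). Ndst2 had 23.0 and 19.7 CPM in cko and 21.0 and 21.2 CPM in control libraries (log2 fold change 0.02, SE 0.12). The cko values of Ndst1 lay between the control values, and the control values of Ndst2 between the cko values.

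Divided by the annotated exonic length of each gene, Ndst1 was the main NDST transcript in every library and Ndst3 the second in control GCps. Ndst1 made up 76.6% and 77.0% of the summed NDST level per kb in cko libraries and 62.9% and 63.6% in control libraries. The Ndst3 share was 8.46% and 10.2% in cko libraries, against 24.7% and 24.9% in control libraries. Ndst2 had 14.9% and 12.6% in cko and 11.5% and 10.5% in control libraries, and its order relative to Ndst3 in cko GCps turned with the gene length used. With the longest transcript the mean share in cko GCps was 12.6% for Ndst3 and 12.2% for Ndst2, and from counts without length it was 11.6% for Ndst3 and 7.88% for Ndst2. Ndst4 had the smallest share in each library, at 0.0877% and 0.221% in cko and 0.878% and 0.991% in control libraries. The whole family summed to 34.1 and 34.5 CPM per kb in cko and to 40.4 and 44.2 CPM per kb in control libraries. Ndst1 and Ndst2 alone came to 31.1 and 30.9 CPM per kb in cko, which overlaps the 30.0 and 32.8 CPM per kb in control libraries.

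**Figure D2:**
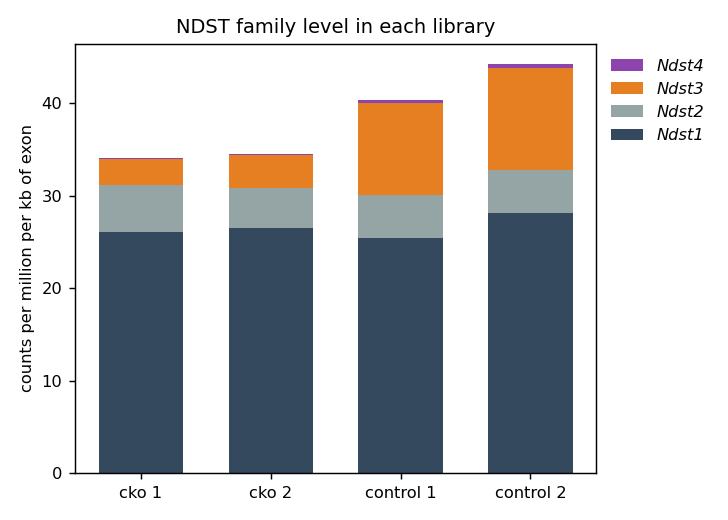
Summed level of the 4 NDST genes in each library, in CPM per kb of exon, stacked by gene with cko libraries on the left. The Ndst3 segment is 2.88 and 3.51 CPM per kb in the cko libraries and at least 9.97 CPM per kb in the control libraries.

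Ndst3 and Ndst4 lie in the same region of chromosome 3 (GRCm38). Ndst3 (ENSMUSG00000027977) runs on the minus strand from 123526166 to 123690853 and Ndst4 (ENSMUSG00000027971) on the plus strand from 125404076 to 125728899, with 1713 kb between them, and neither shares exonic sequence with another annotated gene. Of 63 other annotated genes within 2 Mb of either, 28 were tested, of which 0 fell, 1 rose and 27 did not pass. Among all tested genes 0.773% were called lower and 0.809% higher, so 28 genes are too few to set the region apart. The median log2 fold change of the 28 was 0.02, with 14 below and 14 above 0. The gene that rose was Abca4, a lipid transporter best known from photoreceptors, with 10.8 and 7.46 CPM in cko and 2.47 and 2.73 CPM in control libraries (log2 fold change 1.81, SE 0.23, edgeR adjusted p = 0.0242, and 0.0735 without control replicate 2). With DESeq2's Wald test 5 of the 28 passed, beside 890 of all 16082 genes given an adjusted p by that test. Of the 5, Camk2d and Tram1l1 were lower and Abca4, Arhgap29 and Bcar3 higher in cko GCps.

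Between Ndst3 and Ndst4 stand 12 annotated genes, of which only Tram1l1 and the pseudogene Gm4617 were expressed enough to test. Tram1l1 had 29.2 and 28.5 CPM in cko and 39.9 and 36.7 CPM in control libraries (log2 fold change -0.41, edgeR adjusted p = 0.140). Beyond Ndst4, Arsj (-0.77, edgeR adjusted p = 0.145) and Camk2d (-0.45, adjusted p = 0.144) also had both cko values below both control values. With Tram1l1 this pattern was seen in 7 of the 28 genes, beside 21.2% of all tested genes, and the opposite pattern in 9 of the 28, beside 22.7%. On the far side of Ndst3 the nearest tested genes were Prss12 (-0.32), Mettl14 (0.05) and Sec24d (0.25), none past the test. The muscle gene Myoz2 reached 0.259 and 0.472 CPM in cko and 0.0522 and 0.00 CPM in control libraries, too few counts for a fold change. The other tested genes were F3, Abcd3, Arhgap29, Gm4609, Gclm, Gm17494, Dnttip2, Bcar3, Fnbp1l, Pde5a, 1810037I17Rik, Usp53, Ugt8a, Synpo2, Ank2, Larp7, Zgrf1, Neurog2 and Alpk1, with log2 fold changes between -0.67 (Gm4609) and 0.95 (Bcar3).

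**Figure D3:**
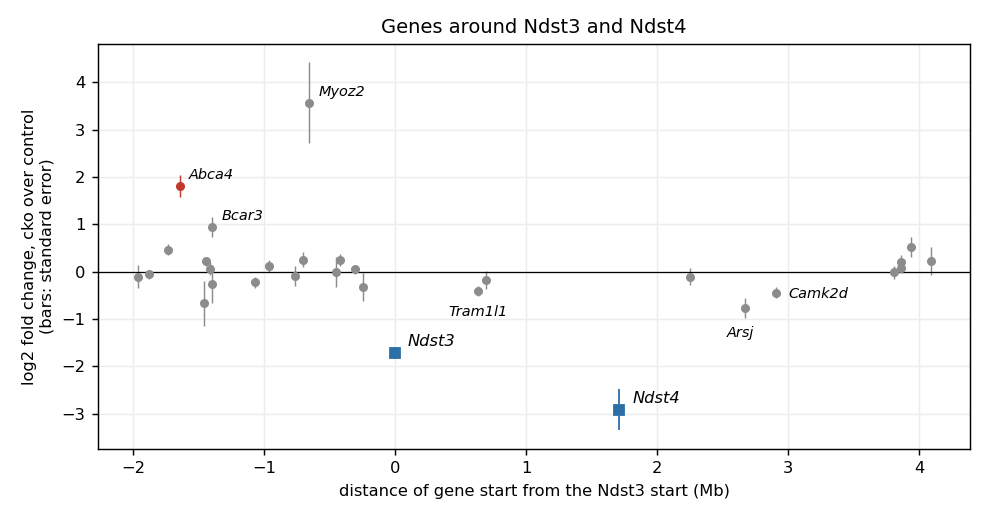
Log2 fold change of cko over control (vertical axis, bars are standard errors) against the distance in Mb of each gene start from the start of Ndst3 (horizontal axis), for Ndst3 and Ndst4 (blue squares) and the 28 tested genes within 2 Mb of either. Abca4 (red) passed the test and gray genes did not; the Myoz2 value rests on near-zero counts.

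Promoter windows of the RefSeq starts (GRCm38.p6, 250 bases before to 50 after each start) were available for 6 of the 10 genes. Those of Ndst3 are shown because it is the most abundant gene with a large difference, with those of the 3-O-sulfotransferase genes Hs3st5 and Hs3st4 that passed the test below. Both Ndst3 windows lie inside the gene body as annotated above. The outermost annotated start of Ndst3, at 123690853 on the minus strand, has no window in this set. E-boxes (CANNTG, which reads the same on both strands), the element bound by basic helix-loop-helix factors such as ATOH1, are in capitals, and overlapping copies were counted separately.
Ndst3, chr3:123672428-123672727, minus strand: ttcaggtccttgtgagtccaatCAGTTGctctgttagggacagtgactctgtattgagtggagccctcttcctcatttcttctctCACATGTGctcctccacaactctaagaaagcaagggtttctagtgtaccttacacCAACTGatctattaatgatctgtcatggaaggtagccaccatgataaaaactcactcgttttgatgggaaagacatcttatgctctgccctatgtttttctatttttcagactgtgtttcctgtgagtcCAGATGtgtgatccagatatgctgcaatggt
Ndst3, chr3:123619401-123619700, minus strand: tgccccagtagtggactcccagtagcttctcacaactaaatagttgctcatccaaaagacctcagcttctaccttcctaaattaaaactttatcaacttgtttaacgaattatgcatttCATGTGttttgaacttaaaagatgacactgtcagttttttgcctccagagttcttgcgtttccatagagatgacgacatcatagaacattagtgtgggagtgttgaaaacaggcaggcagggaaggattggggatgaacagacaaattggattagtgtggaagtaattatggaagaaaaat
Hs3st5, chr10:36506557-36506856, plus strand: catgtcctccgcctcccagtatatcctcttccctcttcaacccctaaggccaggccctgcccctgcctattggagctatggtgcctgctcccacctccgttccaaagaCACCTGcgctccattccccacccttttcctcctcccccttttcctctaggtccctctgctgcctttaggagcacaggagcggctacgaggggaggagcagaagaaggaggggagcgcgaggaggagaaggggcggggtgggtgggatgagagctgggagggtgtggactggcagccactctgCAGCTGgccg
Hs3st4, chr7:123982578-123982877, plus strand: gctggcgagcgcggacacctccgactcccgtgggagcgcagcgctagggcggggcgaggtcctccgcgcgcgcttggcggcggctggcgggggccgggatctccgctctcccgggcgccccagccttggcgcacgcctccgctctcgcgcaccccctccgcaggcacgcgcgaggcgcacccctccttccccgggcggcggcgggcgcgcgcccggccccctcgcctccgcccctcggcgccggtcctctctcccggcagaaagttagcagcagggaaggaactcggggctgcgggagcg

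The first Ndst3 window held 5 E-boxes and 1 CG dinucleotide, and the second held 1 E-box and 3 CG dinucleotides. The Hs3st5 window held 2 E-boxes and 9 CG dinucleotides, and the Hs3st4 window 0 E-boxes and 47 CG dinucleotides. Among all 32851 windows of this length, 72.3% held an E-box, 39.6% held at least 2, 2.10% held at least 5, and the median CG count was 7. The windows of Hs6st1, Hs2st1 and Ndst2, which differed little between genotypes, held 0 E-boxes and 47, 32 and 20 CG dinucleotides, and that of Ext2 held 2 E-boxes and 18 CG dinucleotides. GC content was between 66.7% and 78.0% in the windows of Hs6st1, Hs2st1 and Ndst2, against 43.0% in the first Ndst3 window. A link of E-boxes to the difference between genotypes was not tested. Hs6st2 has a pair of windows, both with 0 E-boxes, and with 12 and 33 CG dinucleotides. A match to these letters is a description of the window and not a binding site.

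The chain polymerases had nearly equal levels in both genotypes. Extl3 had 131.8 and 124.9 CPM in cko and 129.8 and 115.3 CPM in control libraries, with a fitted log2 fold change of 0.07 (SE 0.10). Ext1 had 64.1 and 68.1 CPM in cko and 66.3 and 68.9 CPM in control libraries (log2 fold change -0.03, SE 0.10), and Ext2 had 83.7 and 82.0 CPM in cko and 85.4 and 78.4 CPM in control libraries (0.02, SE 0.09). All 3 genes overlapped between genotypes, and the libraries of a genotype differed by no more than 0.17 on the log2 scale.

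Among the O-sulfotransferases, Hs2st1 and Hs6st1 overlapped between genotypes as well. Hs2st1, the only 2-O-sulfotransferase, had 84.8 and 93.9 CPM in cko and 87.6 and 87.1 CPM in control libraries (log2 fold change 0.03, SE 0.10). Hs6st1, the more abundant 6-O-sulfotransferase, had 61.3 and 64.9 CPM in cko and 60.1 and 65.1 CPM in control libraries (0.01, SE 0.10), and 8.07% of its exonic bases are shared with an antisense gene. Hs6st2 had 34.4 and 36.9 CPM in cko and 24.8 and 30.8 CPM in control libraries. Both cko values were above both control values, which held for 22.7% of all tested genes, and the log2 fold change of 0.36 (SE 0.14) was not past the threshold. Hs6st2 lies on the X chromosome, and the cko library with Xist had the lower of the cko values.

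Per kb of exon the order of the 10 genes was the same in both genotypes apart from Ndst3. In cko GCps the mean levels were 26.3 CPM per kb for Ndst1, 21.2 for Extl3, 11.4 for Hs6st1, 11.3 for Ext2, 10.9 for Hs2st1, 8.18 for Ext1, 4.70 for Ndst2, 4.57 for Hs6st2, 3.20 for Ndst3 and 0.0531 for Ndst4. In control GCps they were 26.8 CPM per kb for Ndst1, 20.2 for Extl3, 11.3 for Hs6st1, 11.2 for Ext2, 10.6 for Hs2st1, 10.5 for Ndst3, 8.37 for Ext1, 4.64 for Ndst2, 3.56 for Hs6st2 and 0.396 for Ndst4. Ndst3 was therefore the 9th gene in cko and the 6th in control GCps. In cko libraries Hs6st1, Ext2 and Hs2st1 had overlapping values per kb, as did Ndst2 and Hs6st2, so the order within each of these groups is not resolved. In control libraries Hs6st1 and Ext2 overlapped each other, Hs2st1 lay below both, and Ndst3 overlapped all 3. Over the 10 genes the median log2 fold change was 0.01, beside -0.00056 over all tested genes.

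The rest of the pathway was taken as whole families, 69 genes in 9 lists, of which 64 were tested, 1 fell, 1 rose and 62 did not pass. Both that passed, 1 of 64 lower beside 0.773% and 1 of 64 higher beside 0.809% of all tested genes, encode 3-O-sulfotransferases, which add the last and rarest sulfate groups. Hs3st5 (chromosome 10, 36506814 to 36834397) had 5.98 and 9.77 CPM in cko and 22.1 and 22.3 CPM in control libraries. It fell to 7.88 ± 2.68 CPM in cko GCps, against 22.2 ± 0.105 CPM in control GCps (SD, n = 2 each; log2 fold change -1.50, SE 0.23, edgeR adjusted p = 0.0415). Hs3st4 (chromosome 7, 123982869 to 124398989), a brain-expressed isoform with 4.08% of its exonic bases shared with an antisense gene, had 2.80 and 2.26 CPM in cko and 0.927 and 0.829 CPM in control libraries. It rose to 2.53 ± 0.382 CPM in cko GCps, against 0.878 ± 0.0695 CPM in control GCps (log2 fold change 1.52, SE 0.25, edgeR adjusted p = 0.0435). The other tested members of the family did not pass, with Hs3st1 at 2.66 and 4.54 CPM in cko and 3.43 and 3.12 CPM in control libraries, and Hs3st3b1 at 0.506 and 0.504 CPM in cko and 0.392 and 0.282 CPM in control libraries. Hs3st2, Hs3st3a1 and Hs3st6 had too few counts to test. Both calls were lost when single libraries were left out. Without control replicate 1 the edgeR adjusted p was 0.0757 for Hs3st5 and 0.0888 for Hs3st4, without control replicate 2 it was 0.152 and 0.211, and without cko replicate 1 it was 0.101 for Hs3st4. DESeq2's Wald test called 7 of 64 pathway genes, beside 890 of all 16082 genes, adding Chst11, Hspg2, Col18a1, Gpc3 and Hs6st3.

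**Figure D4:**
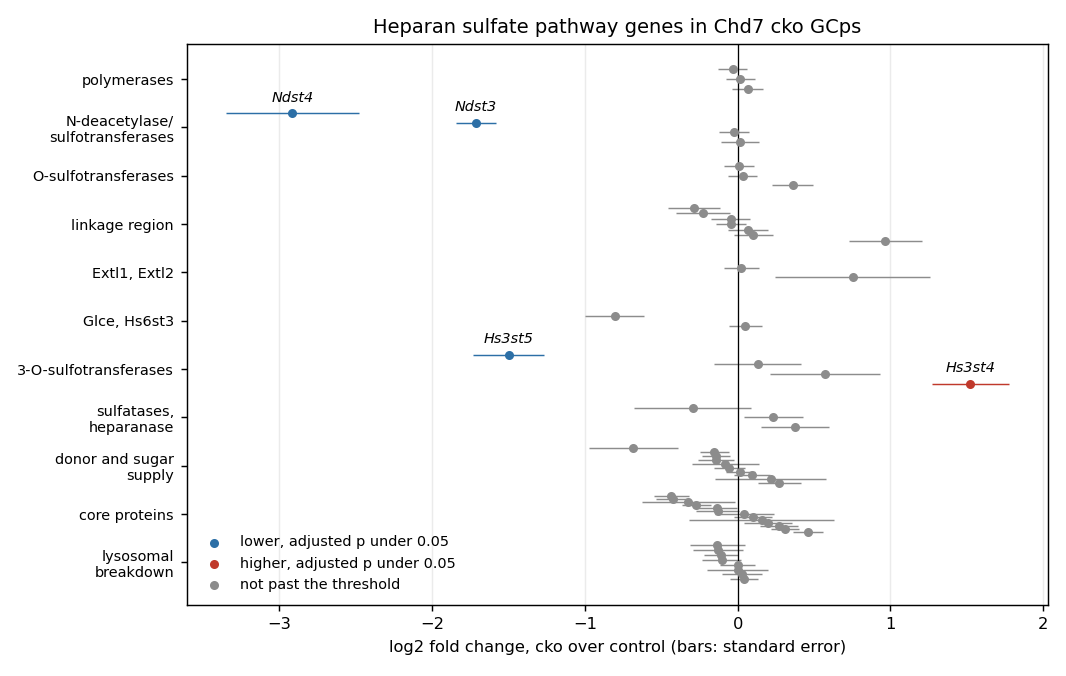
Log2 fold change of cko over control (horizontal axis, bars are standard errors) for the 10 heparan sulfate genes and the 49 other tested genes of heparan sulfate synthesis, editing and breakdown, grouped by role (vertical axis). Of the tested pathway genes, Hs3st5 is lower and Hs3st4 higher past the threshold. Ndst3 and Ndst4 are colored by the same threshold as a description only, since the same contrast chose them. The other genes are gray.

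In the early steps 0 of 7 linkage region genes passed (1 at an unadjusted p under 0.05). The highest per kb, B3gat3, which adds the last sugar of the linker, had 31.8 and 26.4 CPM in cko and 40.7 and 30.4 CPM in control libraries. Xylt1, which attaches the initial xylose to the core protein, had 2.54 and 3.14 CPM in cko and 1.55 and 1.34 CPM in control libraries (log2 fold change 0.97, edgeR adjusted p = 0.124). Neither Extl1 nor Extl2 passed, and Extl2 had 21.3 and 20.0 CPM in cko and 20.4 and 20.2 CPM in control libraries.

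Of the modifying enzymes outside the 10 genes, the epimerase gene Glce had 253.9 and 298.0 CPM in cko and 269.1 and 263.7 CPM in control libraries, with overlapping groups. The remaining 6-O-sulfotransferase gene Hs6st3 had 2.97 and 3.53 CPM in cko and 5.81 and 5.54 CPM in control libraries (log2 fold change -0.81, edgeR adjusted p = 0.116). Sulf2, which removes 6-O-sulfates outside the cell, had 5.63 and 7.06 CPM in cko and 5.05 and 5.73 CPM in control libraries, and 0 of 3 tested genes of sulfatases and heparanases passed (0 at an unadjusted p under 0.05). In the list of sulfate donor and sugar supply 0 of 10 passed (0 at an unadjusted p under 0.05), and its gene with the highest level per kb, Papss1, which makes the sulfate donor PAPS, had 154.1 and 164.3 CPM in cko and 182.8 and 171.0 CPM in control libraries.

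Of 13 core protein genes 0 passed the test, and 5 had an unadjusted p under 0.05 (13.6% of all tested genes). Sdc3, the neuronal syndecan and the highest of the list per kb when averaged over both genotypes (in cko GCps Gpc1 was as high, at 45.2 CPM per kb beside 44.6 for Sdc3), had 262.3 and 271.4 CPM in cko and 328.1 and 315.4 CPM in control libraries (log2 fold change -0.27, edgeR adjusted p = 0.257). Hspg2, which encodes perlecan of basement membranes, had 41.4 and 41.9 CPM in cko and 30.4 and 30.0 CPM in control libraries (0.46, edgeR adjusted p = 0.0914). Gpc1 (0.31, adjusted p = 0.199; 18.9% of its exonic bases are shared with an antisense gene), Gpc3 (-0.43, adjusted p = 0.146) and Col18a1 (-0.42, adjusted p = 0.146) were the others with an unadjusted p under 0.05. Of the 8 genes of lysosomal breakdown 0 passed (0 at an unadjusted p under 0.05), with log2 fold changes between -0.13 and 0.04, and Ids had 107.3 and 150.3 CPM in cko and 137.0 and 144.6 CPM in control libraries.

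Chondroitin sulfate, which shares the linker with heparan sulfate, was followed with 15 tested genes, of which 0 passed (3 at an unadjusted p under 0.05). The chondroitin sulfotransferase gene Chst15, with 17.9% of its exonic bases shared with an antisense gene, had 125.5 and 139.0 CPM in cko and 107.4 and 95.7 CPM in control libraries (log2 fold change 0.38, edgeR adjusted p = 0.159). The related gene Chst11 had 26.9 and 26.3 CPM in cko and 19.0 and 18.9 CPM in control libraries (0.49, edgeR adjusted p = 0.0909). Chst3, a further chondroitin sulfotransferase gene, had 2.44 and 2.26 CPM in cko and 3.43 and 3.78 CPM in control libraries (-0.62, edgeR adjusted p = 0.237).

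**Figure D5:**
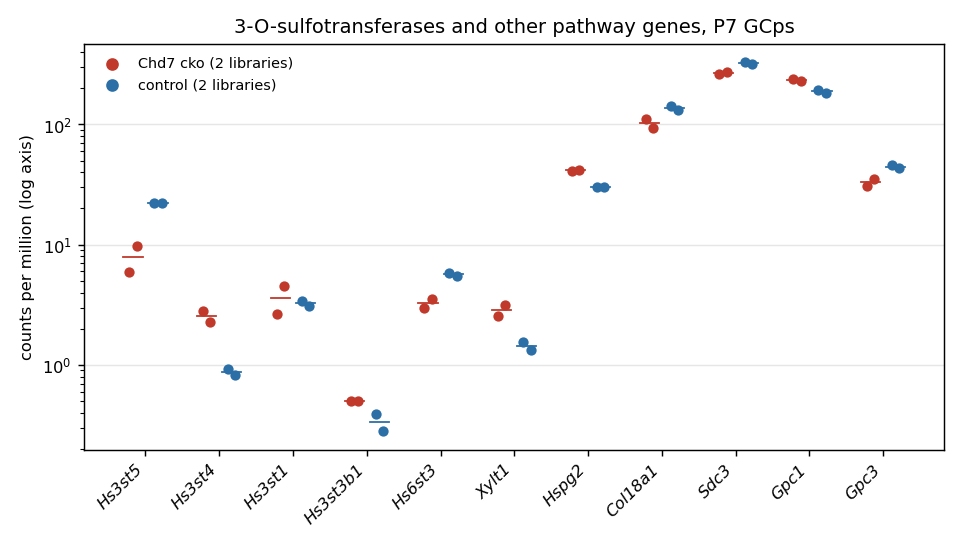
Level in each library, in CPM on a log axis, of the 4 tested 3-O-sulfotransferase genes and of the 7 other genes of heparan sulfate synthesis and core proteins with an unadjusted p under 0.05, with cko libraries (red) left of control libraries (blue) and bars at the mean. Hs3st5 is lower and Hs3st4 higher in both cko libraries, and for Hs3st1 the control values lie between the cko values.

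Some genes of other cell states and cell types also differed between genotypes, in both directions. The list of postmitotic neuron genes summed to 4905 and 5920 CPM in cko and to 7414 and 7117 CPM in control libraries, a ratio of 0.745, and 3 of 17 fell (Gap43, Nefl and Nefm). Of all tested genes 0.773% were called lower. In this list 16 of 17 log2 fold changes were below 0, and 11 genes had an unadjusted p under 0.05 (13.6% of all tested genes). The list of mature granule neuron genes summed to 303.7 and 378.0 CPM in cko and to 804.4 and 760.2 CPM in control libraries, a ratio of 0.436. In it 2 of 9 tested genes fell, Cadps2 and Kcnd2, and 7 did not pass (5 of the 9 had an unadjusted p under 0.05). Of the 9 log2 fold changes 4 were below and 5 above 0, with a median of 0.03. Cadps2 alone had 60.1 and 92.3 CPM in cko and 457.6 and 426.6 CPM in control libraries, most of the control sums, whereas Grin2c had 23.0 and 15.5 CPM in cko and 1.10 and 2.58 CPM in control libraries without passing (edgeR adjusted p = 0.0566). The defining marker Gabra6 was between 0.00 and 0.104 CPM in every library. The log2 fold changes of Cadps2 (-2.54) and Kcnd2 (-2.84) were further below 0 than those of Ndst3 (-1.71) and Hs3st5 (-1.50) and near that of Ndst4 (-2.92). The part of these shifts in the lower Ndst3, Ndst4 and Hs3st5 levels was not tested, and fewer cells of a type and less RNA per cell cannot be told apart in these bulk libraries.

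Other marker lists are given for the same reason. Skeletal muscle genes summed to 35.9 and 76.5 CPM in cko and to 11.1 and 8.02 CPM in control libraries. Of these 3 of 10 rose, beside 0.809% of all tested genes called higher (10 of 10 at an unadjusted p under 0.05). Endothelial and mural genes summed to 483 and 543 CPM in cko and to 397 and 351 CPM in control libraries with 0 of 10 past the test (7 at an unadjusted p under 0.05). Among oligodendrocyte lineage genes 1 of 10 rose, Olig2 (3 of 10 at an unadjusted p under 0.05). Astrocyte and Bergmann glia genes summed to 937 and 917 CPM in cko and to 1085 and 1155 CPM in control libraries with 0 of 10 past the test (5 at an unadjusted p under 0.05). Purkinje cell and interneuron genes summed to 81.8 and 82.4 CPM in cko and to 63.3 and 73.1 CPM in control libraries, with the Purkinje marker Pcp2 at no more than 0.196 CPM and 0 of 9 tested genes past the test (2 at an unadjusted p under 0.05). Microglia genes summed to between 332 and 373 CPM and meningeal and choroid plexus genes to between 91.3 and 142.3 CPM per library, with overlapping genotypes and 0 of 10 past the test in each list (0 microglia genes and 1 meningeal gene at an unadjusted p under 0.05).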

How the data were processed

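The authors deposited whole-number counts per Ensembl gene, 1 file per RNA-Seq library, without normalization. According to the methods of the paper and the notes submitted with the data, reads were trimmed with Trim Galore 0.4.1, aligned to mm10 with TopHat2 2.0.14 using Ensembl 75, and counted with HTSeq 0.6.1p1 in intersection-strict mode, skipping alignments of quality below 3. How strand was handled in counting is not stated in these sources. The ATAC-Seq and H3K4me1 samples were not analysed here.

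Symbols, coordinates and exonic lengths were taken from GENCODE vM21 (GRCm38) for 37607 of 38924 genes. Counts were tested with edgeR 4.0.16 in R 4.3.3 (filterByExpr, TMM, robust quasi-likelihood test, Benjamini-Hochberg adjustment over 16436 genes, threshold 0.05). CPM uses TMM-scaled library sizes, and the standard error is the log2 fold change divided by the square root of F. The steps were also run on counts simulated with the spread of these same libraries, without a sex difference or shared replicate deviations. Such a run cannot check calls under the sex imbalance described above. Alternatives were other size factors, no filter, DESeq2 1.42.0, a replicate block, each library left out in turn and another gene length. Replicate libraries of a genotype differed by more than sampling noise (chi-square per degree of freedom 93.7 for cko and 49.9 for control).

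The 10 genes and all lists were chosen with earlier results of these data known. Named in the text are the 10 genes, pathway genes that passed, the highest per kb in each other list, and tested genes near Ndst3 and Ndst4. Further genes (Xylt1, Hs6st3, Hspg2, Gpc1, Gpc3, Col18a1, Chst11, Chst3, Grin2c, Hs3st1 and Hs3st3b1) were named after their values were seen.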

Additional observations from a re-analysis of the deposited data

How the results depend on the processing

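The values of the 10 genes are a description, since the same contrast chose them. Over 8 alternatives to the fit the log2 fold change lay between -1.86 and -1.57 for Ndst3 and between -3.72 and -2.36 for Ndst4. The smallest of these differences, -1.57 and -2.36, came without cko replicate 1, where all libraries left are male. In that fit the log2 fold change was -1.175 for Hs3st5 and 1.37 for Hs3st4. A part of sex in these values was not tested. With 1 library left out, between 1 and 2 of the 10 genes were past the threshold, Ndst4 being the one that was not when either control library was missing. Over all genes the count of 260 became 727 without the filter on low counts, 890 with DESeq2's Wald test and 1010 with the replicate block, and lay between 83 (without control replicate 2) and 602 (without cko replicate 2) with 1 library left out. Of the other pathway genes, 5 of 69 tested passed without the filter, 7 of 64 with DESeq2 and 10 of 64 with the replicate block. The number also changed when 1 library was left out. Of the genes near Ndst3 and Ndst4, 5 passed without the filter, 5 with DESeq2, 5 with the replicate block, and between 0 and 2 with 1 library left out. The cause was not tested. With DESeq2's size factors in edgeR, the counts of the 10 genes, the pathway and the neighbours were unchanged.

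Same-numbered libraries deviated together (correlation 0.268), but the labels give no shared animal or day and there are only 2 pairs, so the replicate block is an alternative alone. The same 2 of the 10 genes were past the threshold, and the pathway genes it added were Chst11, Col18a1, Gpc1, Gpc2, Gpc3, Hs6st3, Hspg2 and Xylt1. With it 5 pathway genes were lower and 5 higher. Of the exonic bases of Gpc2, 55.6% are shared with other annotation on the same strand, and its values overlapped between genotypes. The Ndst3 share of the NDST level was 12.6% in cko and 31.6% in control GCps with the longest transcript as length, and 11.6% in cko and 29.5% in control GCps from counts without length. Without length Ndst4 reached up to 1.40% in control GCps. With the longest transcript Ndst3 was 8th of 10 genes in cko and 4th in control GCps. Depth limits the values of Ndst4, Hs3st4 and the 3 untested 3-O-sulfotransferases.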
